A study of Mus musculus with 24 samples.

Results

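The genes described here are the 78 protein-coding gene rows whose symbols begin with Mrpl or Mrps followed by a number, out of 57010 gene rows in all, 21771 of them protein-coding. They encode proteins of the mitochondrial ribosome: 49 have Mrpl names, given to the large subunit, and 29 have Mrps names, given to the small subunit. The 6 pseudogene rows with matching names were left out, and none of them had more than 12 counts in any group of libraries. All 24 libraries came from GT1-7, an immortalized mouse line of neurons that make gonadotropin-releasing hormone, and were made with CEL-seq2, a protocol that reads the 3′ ends of polyadenylated RNA. In the RNA immunoprecipitation (RIP) experiment, GT1-7 cells were transfected with 6 µg of a plasmid for GFP-Mkrn3 or for GFP alone and lysed 24 hours later. Mkrn3 is a makorin RING-finger protein with RNA-binding zinc fingers. GFP was pulled down on GFP-binding beads, and 5% of each lysate was kept as input, which gave the groups GFP-Mkrn3 IP, GFP-Mkrn3 input, GFP IP and GFP input. In the fractionation experiment, RNA was taken from whole cells (total) or from the cytoplasm of a GT1-7 line with stable GFP-Mkrn3 expression, labelled Mkrn3ox, and of wt GT1-7 cells. Each of the 8 groups had 3 libraries. The labels do not say whether these came from separate cultures, so p-values measure the spread between these libraries, which may be technical. Nor do they say how many clones make up the Mkrn3ox line.

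Mitochondrial ribosomes translate the few mRNAs made from mitochondrial DNA, all of which encode parts of the respiratory chain and ATP synthase. Their own proteins are encoded in the nucleus, translated in the cytoplasm and imported, and they are assembled in the mitochondrial matrix onto rRNA made from mitochondrial DNA. Several names differ from the present place of the protein: Mrps18a and Mrps30 sit in the large subunit, and Mrps36 is now counted as a component of the 2-oxoglutarate dehydrogenase complex. Mrpl58 is a peptidyl-tRNA hydrolase built into the large subunit, and Mrpl12 belongs to the stalk that recruits translation factors.

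Total counts per library ran between 6254703 and 14575652 in the RIP experiment and between 374386 and 759271 in the fractionation experiment. Levels are given in CPM, the share of a library's counts after TMM scaling, and are compared between groups for 1 gene at a time, not between genes. Mkrn3 had 9542 ± 414 CPM in GFP-Mkrn3 IP, 3688 ± 74.2 CPM in GFP-Mkrn3 input, 6.76 ± 1.01 CPM in GFP IP and 6.20 ± 2.33 CPM in GFP input (SD, n = 3 each). In the fractionation experiment the Mkrn3 row had 6 counts over the Mkrn3ox cytoplasm libraries, 1 over the wt cytoplasm libraries and 0 in all 6 total libraries. It does not bear out the Mkrn3ox label in total RNA. The sources used here do not give the strand setting of the counting, so a nearly empty row cannot decide on the label. The groups Mkrn3ox total and Mkrn3ox cytoplasm are therefore named by their label alone. Of 8 markers of the neuronal line, Gnrh1, Eno2 and Map2 were present in all 8 groups, while Snap25, Chga and Stmn2 had at most 2 counts in any group. Tubb3 had 13 counts in Mkrn3ox total, 0 in wt total, 8 in Mkrn3ox cytoplasm and 2 in wt cytoplasm. Syp had 6, 3, 0 and 2 counts in the same groups. In the RIP groups Tubb3 had 29 to 65 counts and Syp 152 to 200. Among markers of other cells, Ptprc, Aif1, Pecam1 and Cdh5 had at most 5 counts in any group, but the collagen genes Col1a1 and Col1a2 were present in each.

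The promoters of these genes were read for sequence features that the choice of genes did not use. RefSeq promoter windows of GRCm38.p6, running from 250 bases before to 50 bases after the gene start, were found for 69 of the 78 genes. The core bound by ETS factors such as GABP, CCGGAAG, stood on either strand of 25 of the 69 windows (36.2%), against 11.9% of 17491 protein-coding promoters. The YY1 core AAGATGG was in 13 windows (18.8%, against 6.37% of all promoters) and the NRF1 core GCATGCG in 8 (11.6%, against 4.48%). At least 1 of the 3 cores was present in 37 windows (53.6%, against 20.7%), 9 windows held more than 1, and no matches to different cores shared bases in any of them. The remaining 32 of the 69 windows held none of the 3. A match is a description of letters and no evidence of binding. The 4 windows that hold both the ETS and the YY1 core, those of Mrps12, Mrps18a, Mrpl52 and Mrps27, are shown as examples of these letters. Each is written 5′ to 3′ on the gene's strand, with the cores, or their reverse complements CTTCCGG and CCATCTT, in capitals.
Mrps12, chr7:28741772-28742071, minus strand: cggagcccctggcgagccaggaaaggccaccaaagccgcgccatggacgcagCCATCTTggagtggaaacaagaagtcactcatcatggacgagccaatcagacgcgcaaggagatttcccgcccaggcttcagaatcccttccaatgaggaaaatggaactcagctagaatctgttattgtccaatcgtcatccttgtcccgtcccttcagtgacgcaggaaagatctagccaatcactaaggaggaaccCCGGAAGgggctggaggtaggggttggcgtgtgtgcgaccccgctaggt
Mrps18a, chr17:46110754-46111053, plus strand: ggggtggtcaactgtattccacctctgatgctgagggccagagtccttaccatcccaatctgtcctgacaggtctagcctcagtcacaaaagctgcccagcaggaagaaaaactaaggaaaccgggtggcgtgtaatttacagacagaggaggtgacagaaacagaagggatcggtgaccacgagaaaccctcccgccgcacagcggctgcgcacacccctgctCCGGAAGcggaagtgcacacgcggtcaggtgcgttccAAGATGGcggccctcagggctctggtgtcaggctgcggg
Mrpl52, chr14:54426659-54426958, plus strand: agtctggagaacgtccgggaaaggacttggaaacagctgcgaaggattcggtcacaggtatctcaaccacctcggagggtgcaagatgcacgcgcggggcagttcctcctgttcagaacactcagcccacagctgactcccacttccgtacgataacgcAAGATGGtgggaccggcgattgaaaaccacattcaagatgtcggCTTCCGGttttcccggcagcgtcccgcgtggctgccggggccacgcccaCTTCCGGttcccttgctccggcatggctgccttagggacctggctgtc
Mrps27, chr13:99344536-99344835, plus strand: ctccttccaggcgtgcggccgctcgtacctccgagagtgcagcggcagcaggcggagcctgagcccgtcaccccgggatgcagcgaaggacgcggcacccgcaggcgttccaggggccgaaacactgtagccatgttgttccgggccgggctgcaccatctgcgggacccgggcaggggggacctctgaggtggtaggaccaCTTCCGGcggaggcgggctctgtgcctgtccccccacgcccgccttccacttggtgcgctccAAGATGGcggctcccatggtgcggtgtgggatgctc

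The first question in the RIP experiment was whether GFP-Mkrn3 changed the inputs. The mRNAs of the mitochondrial ribosome were at close levels in both: their summed level was 2100 ± 43.2 CPM in GFP-Mkrn3 input and 2120 ± 48.5 CPM in GFP input (SD, n = 3 each). Of the 78 genes, 77 had enough counts to be tested among 13052 genes. None of the 77 passed edgeR's quasi-likelihood test at a Benjamini-Hochberg adjusted p under 0.05, where 0.0153% of all genes did, 0.00766% in each direction. An unadjusted p under 0.05 was reached by 2 of the 77, and DESeq2 called 0. The median log2 difference was −0.02 over the 77, with a range of −0.52 to 0.80. The gene not tested was Mrpl53, a large-subunit protein, whose row held 3 counts over the 12 RIP libraries, all in GFP-Mkrn3 input 2, and 0 over the 12 fractionation libraries.

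The beads with GFP alone held a smaller share of these mRNAs than the lysate did. The summed level was 1161, 1218 and 1195 CPM in the GFP IP libraries, against 2106, 2174 and 2080 CPM in the GFP input libraries, and these values did not overlap. In edgeR's quasi-likelihood test, 62 of the 77 genes were lower in GFP IP than in GFP input and 1 was higher, together 81.8%, where 50.3% of all genes tested passed in either direction, 25.1% were higher and 25.2% were lower. The median log2 ratio of IP to input was −0.99 over the 77 genes and −0.0045 over all genes, and the 77 ran between −2.77 and 0.54. CPM is a share of a library, so a smaller share on the beads and a different total yield cannot be told apart, just as fewer cells of a type and less RNA per cell cannot be in lysates of many cells.

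The lowest ratio was that of Mrpl34, a short large-subunit protein also found in bacteria, with 2.06, 3.80 and 2.21 CPM in GFP IP against 12.5, 21.7 and 21.4 CPM in GFP input. It fell by 2.77 on the log2 scale (SE 0.27, adjusted p 1.21e-07). Next was Mrps21, a small-subunit protein, with 5.52, 3.56 and 4.24 CPM in GFP IP against 30.6, 29.1 and 19.5 CPM in GFP input, a log2 ratio of −2.56 (SE 0.24, adjusted p 7.65e-08). In both genes every IP library lay below every input library. Mrpl14, a large-subunit protein with a bacterial counterpart, had the tightest values of these: 13.4, 13.6 and 13.4 CPM in GFP IP against 58.4, 58.6 and 58.3 CPM in GFP input (log2 ratio −2.12, SE 0.13, adjusted p 6.19e-10). Mrpl54, Mrpl36, Mrpl52, Mrps18c and Mrpl30 were also among the 8 lowest genes with a mean of at least 20 counts, with log2 ratios of −2.22, −1.95, −1.91, −1.85 and −1.78, and each passed the test.

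Genes named for their roles gave the same direction where they passed. Mrpl12 of the stalk had 14.4, 11.9 and 8.82 CPM in GFP IP against 35.6, 36.0 and 28.02 CPM in GFP input (log2 ratio −1.49, adjusted p 8.89e-06). Mrps12, the counterpart of the bacterial decoding-site protein S12, had 6.81, 6.62 and 5.77 CPM in GFP IP against 14.8, 17.1 and 16.2 CPM in GFP input (log2 ratio −1.32, adjusted p 4.37e-05). The peptidyl-tRNA hydrolase Mrpl58 fell by 1.14 and Mrps18a fell by 0.95 on the same scale. Mrps18b and Mrps30 did not pass, at −0.70 (adjusted p 0.0533) and −0.37 (adjusted p 0.095), although Mrps18b passed without GFP input replicate 1 (−0.85, adjusted p 0.0307). Mrps36 had 5, 4 and 1 counts in GFP IP against 1, 34 and 12 in GFP input, so its log2 ratio of −2.00 (SE 0.82, adjusted p 0.0484) rested on few reads, and without GFP input replicate 2 it was −0.78 (adjusted p 0.491). Its call was also lost without GFP IP replicate 1, 2 or 3, with adjusted p-values of 0.0776, 0.104 and 0.139.

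A few genes stood apart. Mrps35, a small-subunit protein of mitochondria, had 22.7, 29.1 and 28.2 CPM in GFP IP against 20.7, 16.8 and 17.6 CPM in GFP input, and rose by 0.54 (SE 0.16, adjusted p 0.00736). It was the only gene of the 77 called higher. The 14 genes that did not pass were Mrpl1, Mrpl3, Mrpl19, Mrpl37, Mrpl38, Mrpl40, Mrpl44, Mrpl45, Mrpl46, Mrps5, Mrps10, Mrps18b, Mrps27 and Mrps30. Mrps27, a pentatricopeptide-repeat protein of the small subunit, had 23.1, 22.8 and 20.2 CPM in GFP IP against 16.1, 19.7 and 18.1 CPM in GFP input. Its IP libraries all lay above its inputs, but its log2 ratio of 0.30 did not pass (adjusted p 0.108).

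**Figure D1:**
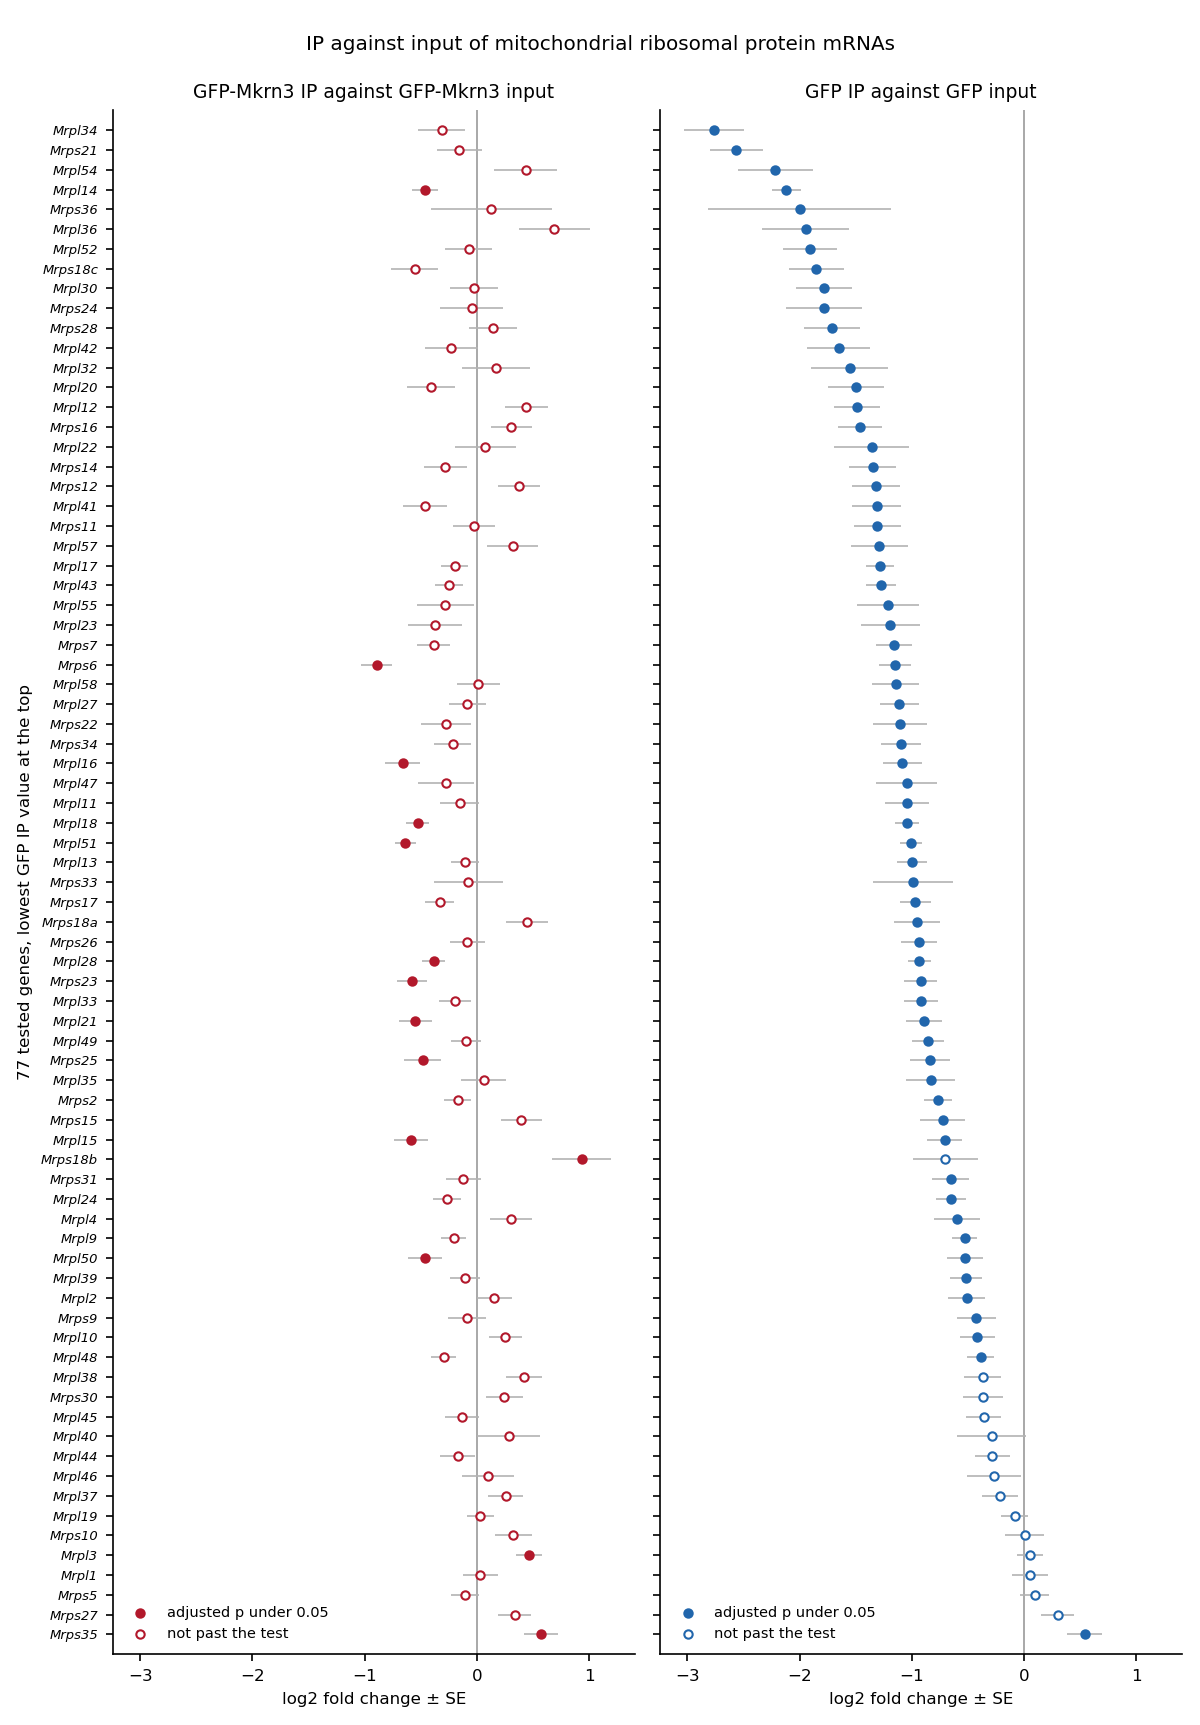
Log2 ratio of IP to input, with its standard error, for the 77 tested genes in GFP-Mkrn3 cells (left) and GFP cells (right), ordered by the GFP value; filled points passed edgeR's quasi-likelihood test at an adjusted p under 0.05 and open points did not. With GFP, 62 genes lie below 0 and pass and 1 lies above 0 and passes, against 11 and 3 with GFP-Mkrn3.

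With GFP-Mkrn3 fewer of these mRNAs differed between beads and lysate. The summed level was 1919, 2039 and 1723 CPM in the GFP-Mkrn3 IP libraries, against 2058, 2144 and 2100 CPM in the GFP-Mkrn3 input libraries. Of the 77 genes, 3 were higher and 11 lower in the IP, together 18.2%, where 26.7% of all genes passed in either direction, 13.9% higher and 12.8% lower. The median log2 ratio was −0.10 over the 77 genes and 0.03 over all genes, with a range of −0.89 to 0.93. The 3 IP libraries differed among themselves: replicate 2 held the highest value of the 3 in 51 of the 77 genes and replicate 3 the lowest in 48. Without GFP-Mkrn3 IP replicate 3, 26 genes were called, 13 higher and 13 lower, and Mrpl12, Mrps12 and Mrps18a were among those higher, with log2 ratios of 0.63, 0.56 and 0.65. With all libraries these 3 did not pass, at 0.44, 0.38 and 0.44. The 26.7% of all genes belongs to the fit with all libraries. The share of all genes called without GFP-Mkrn3 IP replicate 3 is not given here, so the 26 calls cannot be set against it.

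The 3 genes called higher were Mrps18b, Mrps35 and Mrpl3. Mrps18b, a small-subunit relative of bacterial S18, had 14.8, 20.6 and 8.65 CPM in GFP-Mkrn3 IP against 6.22, 7.78 and 9.32 CPM in GFP-Mkrn3 input, with an overlap at replicate 3 of each group. It rose by 0.93 (SE 0.26, adjusted p 0.013), and the adjusted p was 0.0989 without GFP-Mkrn3 IP replicate 2 and 0.0694 without GFP-Mkrn3 input replicate 1. Mrps35 had 26.2, 31.3 and 22.4 CPM in GFP-Mkrn3 IP against 19.2, 18.1 and 16.9 CPM in GFP-Mkrn3 input, and rose by 0.57 (SE 0.15, adjusted p 0.00981), with an adjusted p of 0.0594 without GFP-Mkrn3 IP replicate 2. Mrpl3, a large-subunit protein near the peptidyl transferase centre in bacteria, had 45.6, 47.7 and 43.7 CPM in GFP-Mkrn3 IP against 34.03, 34.3 and 31.2 CPM in GFP-Mkrn3 input. It rose by 0.46 (SE 0.11, adjusted p 0.00534), and its groups did not overlap.

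All 11 genes lower with GFP-Mkrn3 were also lower with GFP. With GFP, however, 62 of all 77 genes were lower, so most of any 11 of them would be too. The overlap over all genes was not counted. The 11 genes, 17.7% of the 62, were Mrpl14, Mrpl15, Mrpl16, Mrpl18, Mrpl21, Mrpl28, Mrpl50, Mrpl51, Mrps6, Mrps23 and Mrps25. Mrps6, the counterpart of bacterial S6, had the lowest ratio, with 43.6, 32.5 and 54.3 CPM in GFP-Mkrn3 IP against 78.9, 79.6 and 81.7 CPM in GFP-Mkrn3 input. It fell by 0.89 (SE 0.14, adjusted p 0.000162) in GFP-Mkrn3 cells and fell by 1.15 (SE 0.14, adjusted p 2.27e-06) in GFP cells. Mrpl51 had 69.1, 58.8 and 64.5 CPM in GFP-Mkrn3 IP against 98.5, 107 and 93.8 CPM in GFP-Mkrn3 input and fell by 0.64 (SE 0.09, adjusted p 0.000115). Mrpl16, Mrpl15, Mrps23, Mrpl21, Mrpl18 and Mrps25 were at −0.66, −0.59, −0.58, −0.55, −0.53 and −0.48. Mrps25 lost its call without GFP-Mkrn3 IP replicate 1, 2 or 3 (adjusted p 0.0623, 0.103 and 0.0598) and without GFP-Mkrn3 input replicate 2 or 3 (0.2 and 0.094), and Mrpl21 without GFP-Mkrn3 input replicate 3 (0.0556).

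**Figure D2:**
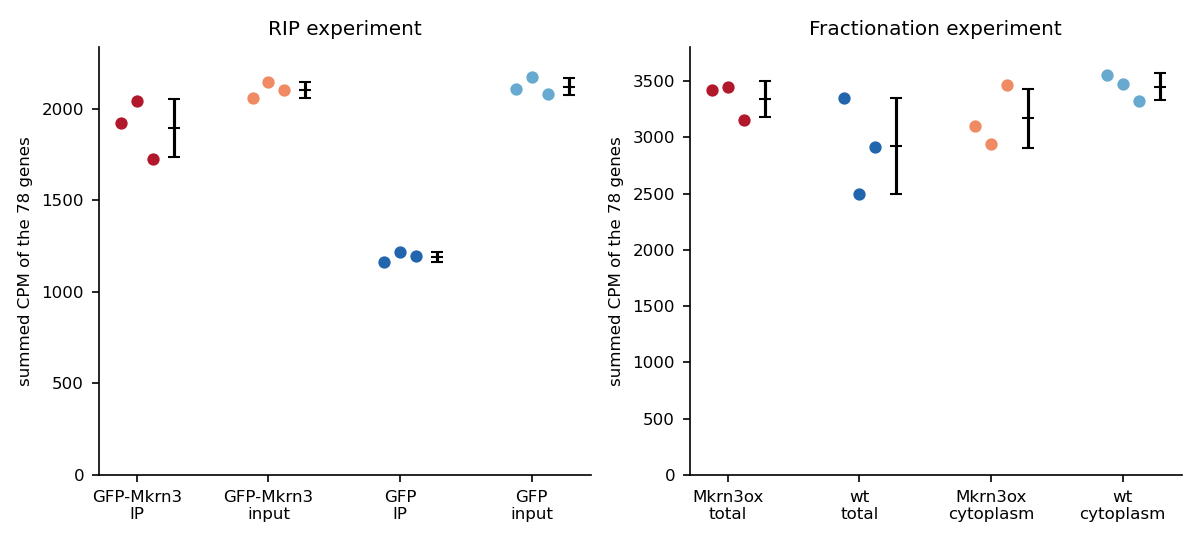
Summed CPM of the 78 genes in each library (points), with the mean ± SD of the 3 libraries (bars), for the RIP groups (left) and the fractionation groups (right). The GFP IP libraries lie between 1161 and 1218 CPM, below the 9 other RIP libraries, which lie between 1723 and 2174 CPM.

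The difference between the proteins was tested in 2 ways, IP against IP and as the difference of the IP-to-input ratios, and both use the GFP IP libraries of the comparison above. Set against GFP IP, GFP-Mkrn3 IP had 60 of the 77 genes higher and 0 lower in edgeR's test, 77.9% of them, where 37.6% of all genes passed in either direction, 20.4% were higher and 17.2% lower. The median log2 ratio was 0.85 over the 77 genes and 0.03 over all genes, and the highest were those of Mrps36, Mrpl34, Mrpl36, Mrpl54, Mrps21, Mrps24, Mrpl30 and Mrpl22, between 2.93 and 1.77. No gene had an unadjusted p under 0.05 in the lower direction, and DESeq2 called 59 higher and 0 lower. In the difference of the ratios, 44 were higher with GFP-Mkrn3 than with GFP and 0 lower, 57.1%, where 24.3% of all genes passed in either direction, 13.2% were higher and 11.1% lower. Here the median was 0.82 over the 77 genes and 0.04 over all genes. Scaling by library size alone moved the medians of all genes to 0.21 and 0.23 in these comparisons, and those of the 77 genes to 1.03 and 1.02.

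Mrpl54, a large-subunit protein of mitochondria, had the largest difference of ratios. Its level was 20.9, 31.5 and 11.1 CPM in GFP-Mkrn3 IP and 15.4, 14.9 and 17.4 CPM in GFP-Mkrn3 input, against 3.73, 5.52 and 4.41 CPM in GFP IP and 26.8, 23.9 and 13.5 CPM in GFP input. The difference was 2.65 (SE 0.44, adjusted p 0.000408). Mrpl36, the counterpart of the small bacterial L36, had 10.6, 14.6 and 4.72 CPM in GFP-Mkrn3 IP and 5.33, 5.41 and 8.05 CPM in its input, against 1.67, 2.58 and 1.53 CPM in GFP IP and 8.32, 8.56 and 5.96 CPM in GFP input. Its difference was 2.64 (SE 0.50, adjusted p 0.00106). In both genes every GFP-Mkrn3 IP library lay above every GFP IP library, while GFP-Mkrn3 IP and its input overlapped.

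Mrpl34 had 13.6, 16.8 and 14.0 CPM in GFP-Mkrn3 IP and 21.8, 16.9 and 16.7 CPM in GFP-Mkrn3 input, and with the GFP values above its difference was 2.45 (SE 0.34, adjusted p 0.000106). Mrps21 had 21.2, 22.3 and 13.9 CPM in GFP-Mkrn3 IP and 18.5, 22.8 and 23.1 CPM in GFP-Mkrn3 input, with a difference of 2.41 (SE 0.31, adjusted p 5.24e-05). Mrpl12, Mrps28, Mrpl52 and Mrps16 followed at 1.93, 1.86, 1.83 and 1.77. In the same order of genes, the log2 ratios of GFP-Mkrn3 IP to its input were 0.44, 0.14, −0.07 and 0.31, and those of GFP IP to GFP input were −1.49, −1.71, −1.91 and −1.46.

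Of the genes named by role, Mrps12 had 17.8, 22.99 and 12.6 CPM in GFP-Mkrn3 IP against 13.0, 15.3 and 13.3 CPM in GFP-Mkrn3 input, and a difference of ratios of 1.69 (SE 0.28, adjusted p 0.000431). The 3 relatives of bacterial S18 all passed, Mrps18b at 1.63, Mrps18a at 1.40 and Mrps18c at 1.30, as did Mrpl58 at 1.16 (adjusted p 0.00663). Mrps30 had a difference of 0.61 (adjusted p 0.0757) and Mrps36 of 2.13 (adjusted p 0.125), and neither passed. Against GFP IP, both were higher in GFP-Mkrn3 IP, with log2 ratios of 0.59 (adjusted p 0.0107) and 2.93 (adjusted p 0.00421). Without GFP IP replicate 1 the value of Mrps30 was 0.42 (adjusted p 0.0726), and without GFP-Mkrn3 IP replicate 3 both passed in the difference of ratios, at 0.70 (adjusted p 0.027) and 2.48 (adjusted p 0.0319); Mrps36 also passed without GFP input replicate 1 (2.62, adjusted p 0.0287). Mrps36 had 40, 84 and 12 counts in GFP-Mkrn3 IP and 5, 4 and 1 in GFP IP.

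Other genes had small differences of ratios that did not pass. Mrps35 differed by 0.03 (SE 0.22, adjusted p 0.943), Mrps27 by 0.04 (SE 0.21, adjusted p 0.917), Mrps5 by −0.20 (SE 0.18, adjusted p 0.448) and Mrpl1 by −0.02 (SE 0.22, adjusted p 0.961). Mrps5 and Mrpl1 were the 2 genes of the 77 with a value below 0, and these 4 were chosen after their values were seen. Mrpl15, Mrpl50 and Mrps6, lower on the beads in both cell sets, also did not pass, at 0.12, 0.06 and 0.26.

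**Figure D3:**
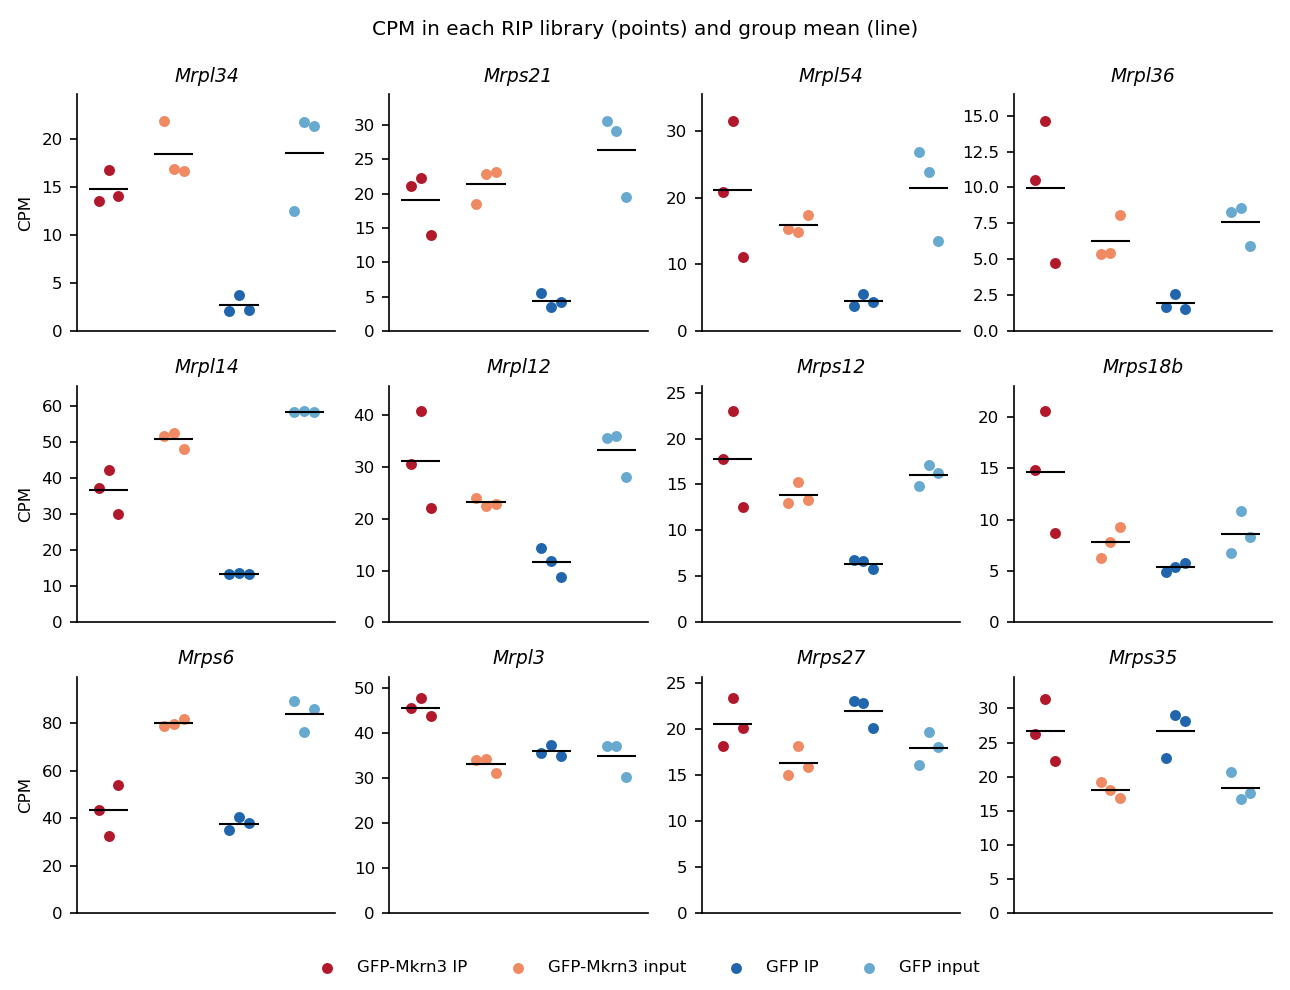
CPM of 12 genes in each RIP library (points) with the group mean (line), in the order GFP-Mkrn3 IP, GFP-Mkrn3 input, GFP IP and GFP input. In Mrpl34, Mrps21, Mrpl54 and Mrpl36 the GFP IP libraries lie below all others, whereas in Mrps6 both IP groups lie below the inputs and in Mrps35 both lie above.

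Genes with large- and small-subunit names were both among those called. With GFP, 39 of 48 Mrpl genes were lower in the IP (median −1.004), and 23 of 29 Mrps genes were lower and 1 higher (median −0.97). Of all genes 25.2% were lower and 25.1% higher. In the difference of ratios 28 of 48 Mrpl genes and 16 of 29 Mrps genes were higher with GFP-Mkrn3, where 13.2% of all genes were. Along the genome the 78 genes lie on 17 chromosomes, 11 of them on chromosome 11. Their gene spans in GRCm38.p6 are short, with a median of 7.69 kb, against 17.1 kb over 21896 protein-coding genes. Mrpl34, at chr8:71464926-71465753 on the plus strand, spans 0.828 kb, and Mrps27, at chr13:99344767-99415562 on the plus strand, spans 70.8 kb. Of the 78 genes, 25 overlap another annotated gene, 15 of them a protein-coding gene known to lie on the opposite strand, so their counts may be shared with it. Mrpl14, Mrpl18, Mrpl21, Mrps18a and Mrps25, named above, are among these 15. Mrpl19, Mrpl44 and Mrpl53 overlap a protein-coding gene with the relation of the strands unknown. On the same strand, Mrps6 overlaps Slc5a3 over 29138 bases and Mrps23 overlaps Cuedc1 over 35 bases, so their counts may be affected too.

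Gene span and the ratio of GFP IP to GFP input went together, with a Spearman rho of 0.394 across the 77 genes and 0.416 across 11991 genes. With GFP-Mkrn3 the rho between span and the IP-to-input ratio was 0.0349 across the 77 and 0.0861 across the 11991. These values are across genes of the same libraries, which are not independent replicates, and the part of span in the results above was not tested. Between the level in GFP input and the GFP ratio the rho across the 77 genes was 0.24.

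Other measures also differed between the IP groups. The summed level of the neuronal markers was 372 to 412 CPM in GFP-Mkrn3 IP and 250 to 277 CPM in GFP IP, against 485 to 540 CPM in GFP-Mkrn3 input and 455 to 514 CPM in GFP input. Gnrh1 carried this gap, with 209 CPM in GFP-Mkrn3 IP and 83.8 CPM in GFP IP, against 319 CPM in GFP-Mkrn3 input and 313 CPM in GFP input, while Eno2 lay at 116 and 105 CPM against 98.1 and 98.6 CPM and Map2 at 62.6 and 67.4 CPM against 76.7 and 66.5 CPM in these groups. The fibroblast, immune and endothelial list, carried by the collagen genes, was at 227 to 251 CPM in GFP-Mkrn3 IP and 260 to 314 CPM in GFP IP, against 172 to 200 CPM in GFP-Mkrn3 input and 166 to 197 CPM in GFP input. The glial list lay between 15.5 and 24.0 CPM in all RIP libraries, with Aqp4 and Mog at 0. The part of these RNAs in the results on the mitochondrial ribosome was not tested.

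Genes whose products work with these proteins were read from the same tests. Of the other 5 proteins of the mitochondrial ribosome, Chchd1, Aurkaip1, Gadd45gip1 and Dap3 were lower in GFP IP than in GFP input and Ptcd3, an RNA-binding protein of the small subunit, was higher, so all 5 passed, where 50.3% of all genes did. In GFP-Mkrn3 IP against its input, Ptcd3 was higher (0.39) and the other 4 did not pass, where 26.7% of all genes did. Chchd1 had the lowest log2 ratio, −1.86, and the difference of ratios was 1.42 for Chchd1 (adjusted p 0.0025) and 0.79 for Aurkaip1 (adjusted p 0.00923). Of 26 genes for assembly of the mitochondrial ribosome and modification of its rRNA, 5 were lower and 2 higher in GFP IP, 26.9%, which lies below the 50.3% of all genes. In the difference of ratios, 4 of the 26 were higher and 0 lower (15.4%, against 24.3%): Rpusd3 at 1.33, Mpv17l2 at 1.30, Rbfa at 0.98 and Ngrn at 0.83. In GFP-Mkrn3 IP against its input, Rbfa, Trub2 and Noa1 were higher, at 0.80, 0.56 and 0.46, and none was lower (3 of 26, where 26.7% of all genes passed).

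Of 15 genes for mitochondrial translation factors and mRNA stability, 3 were higher and 4 lower in GFP IP than in GFP input, 46.7%, near the 50.3% of all genes. The partners Lrpprc and Slirp, whose proteins form a complex that stabilizes mitochondrial mRNAs, went opposite ways: Lrpprc had a log2 ratio of 1.25 and Slirp of −2.37. In GFP-Mkrn3 IP against its input they also passed in opposite directions, Lrpprc at 0.49 and Slirp at −0.87, and Oxa1l, the insertase that receives proteins from the mitochondrial ribosome, was higher at 0.83. In the difference of ratios Slirp was higher with GFP-Mkrn3, at 1.497 (adjusted p 0.0023), and Lrpprc lower, at −0.77 (adjusted p 0.000951). Oxa1l was higher at 0.81 and the ribosome recycling factor Mrrf at 0.78. Of the 15 genes, 3 were thus higher and 1 lower in the difference of ratios, 26.7%, near the 24.3% of all genes. In GFP-Mkrn3 IP against its input, 2 of the 15 were higher and 1 lower, 20%, where 26.7% of all genes passed.

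The fractionation experiment asked how the line labelled Mkrn3ox differs from wt cells in total and cytoplasmic RNA, but it gave few counts in most of these rows. Whether the rows hold reads of these genes' own mRNAs was not tested. Over its 12 libraries, 70 of the 78 rows had fewer than 100 counts, and the median row had 22.5 counts, against 2061 over the 12 RIP libraries. The rows of Mrpl47 (8798 counts) and Mrps25 (6222 counts) held 77.2% of the 19466 counts of all 78, whereas they held 1.37% of 197333 counts in the RIP experiment. Only 12 of the 78 rows passed the filter on low counts, among 5033 rows tested.

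**Figure D4:**
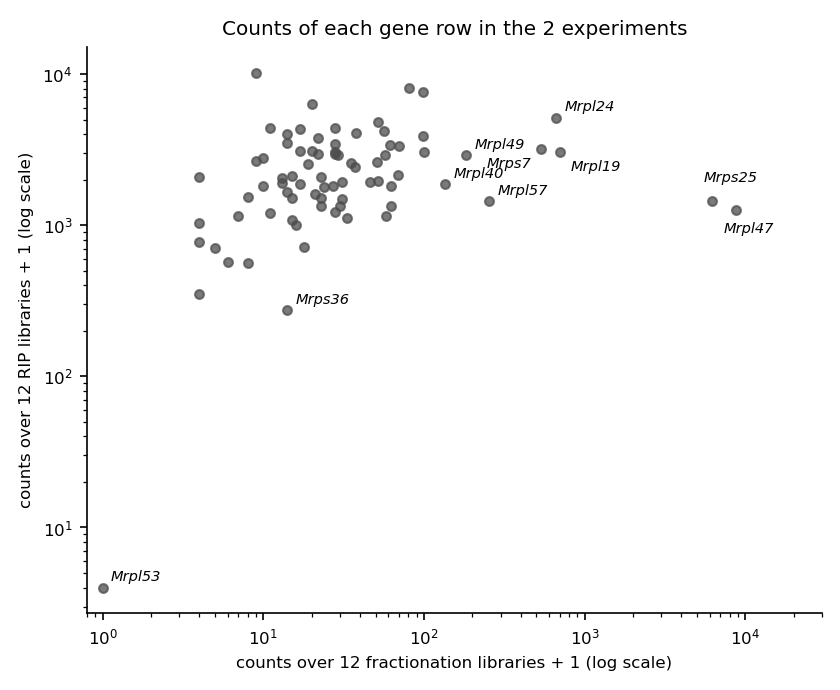
Counts of each of the 78 gene rows over the 12 fractionation libraries (horizontal, plus 1, log scale) and over the 12 RIP libraries (vertical, plus 1, log scale); each point is 1 row. Mrpl47 and Mrps25 lie apart at 8798 and 6222 fractionation counts, and Mrpl53 lies at 0 and 3 counts.

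Neighbouring genes bear on these rows. Of the 12 tested rows, 6 overlap a protein-coding gene known to lie on the opposite strand, against 9 of the 66 not tested. Mrpl19, also tested, overlaps the protein-coding gene Gcfc2 over 1273 bases, with the relation of their strands unknown. The sources used here do not give the strand setting of the counting. Reads of a gene and of its opposite-strand partner therefore cannot be told apart. Overlapping pairs differed in this, and those given next were chosen after their values were seen. Mrpl27, which was not tested, had 1.10 CPM in wt total and 22.3 CPM in GFP input, where its opposite-strand partner Eme1 had 1055 and 12.1 CPM. Mrpl18 had 4.24 and 86.2 CPM in these groups, where its opposite-strand partner Tcp1 had 52.3 and 549 CPM. Which strand was counted was not tested. Mrps25, a small-subunit protein at chr6:92169512-92184023 on the minus strand, overlaps Nr2c2, and had 958 CPM in wt total and 15.8 CPM in GFP input, where Nr2c2 had 229 and 118 CPM. Mrpl47, at chr3:32727497-32736755 on the minus strand, had 1335 CPM in wt total and 13.1 CPM in GFP input and overlaps no annotated gene, with Ndufb5 302 bases and Actl6a 524 bases away on the other strand. Mrpl24 overlaps Rrnad1, which had 1229 CPM in wt total and 13.9 CPM in GFP input. The mitochondrial row mt-Nd6 also differed between the experiments and groups, with 88029 CPM in Mkrn3ox total, 159139 in wt total, 104642 in Mkrn3ox cytoplasm and 255310 in wt cytoplasm, against 228 to 2090 CPM in the RIP groups. Without that row, the number of these genes called was the same in each fractionation comparison.

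In total RNA, none of the 12 rows differed between the libraries labelled Mkrn3ox and wt in edgeR's quasi-likelihood test, where 7.39% of all rows did, 3.56% higher and 3.83% lower. The median log2 ratio was 0.16 over the 12 and −0.01 over all rows. None had an unadjusted p under 0.05, and DESeq2 called 0. Mrpl47 had 1592, 1637 and 1537 CPM in Mkrn3ox total against 1630.5, 1064 and 1312 CPM in wt total, and these values overlapped (log2 ratio 0.25, SE 0.16, adjusted p 0.459). Mrps25 had 1019.9, 991 and 856 CPM in Mkrn3ox total against 1126, 761 and 988 CPM in wt total (log2 ratio −0.0038, SE 0.17). Fitted on the total libraries alone, 1 row that the filter on all 12 libraries had left out, Mrpl35, was called higher (log2 ratio 3.13, SE 0.89, adjusted p 0.039); it is named after its value was seen.

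In cytoplasmic RNA, 2 of the 12 rows were higher and 1 lower in the libraries labelled Mkrn3ox, where 10.5% of all rows passed in either direction, 4.31% higher and 6.14% lower. The median log2 ratio was −0.05 over the 12, also with Mrps30 at the floor ratio given below, and 0.03 over all rows. Mrpl24, a large-subunit protein, had 195, 150.1 and 111 CPM in Mkrn3ox cytoplasm against 44.0, 110.5 and 16.4 CPM in wt cytoplasm, so that the groups came within 1 CPM of each other. Its log2 ratio of 1.37 (SE 0.43, adjusted p 0.0451) lost the call without wt cytoplasm replicate 1 or 3 or Mkrn3ox cytoplasm replicate 1 or 2, with adjusted p-values of 0.154, 0.166, 0.172 and 0.0942. The Mrps30 row had 8, 10 and 4 counts in Mkrn3ox cytoplasm and 0 in each wt cytoplasm library. Against a floor of 3 counts over the wt group this is 6.97-fold higher, with no allowance for error in the Mkrn3ox counts. edgeR's quasi-likelihood test was made on the counts themselves, not on that floor, and gave an adjusted p of 0.0156. The adjusted p was 0.0568, 0.0655 and 0.0588 without wt cytoplasm replicate 1, wt cytoplasm replicate 2 or Mkrn3ox cytoplasm replicate 2. The Mrpl49 row overlaps Syvn1 on the opposite strand, where Fau lies 192 bases away. It had 2, 2 and 4 counts in Mkrn3ox cytoplasm against 17, 15 and 21 in wt cytoplasm. It fell by 2.78 on the log2 scale (SE 0.67, adjusted p 0.00881). Leaving out wt cytoplasm replicate 1 or Mkrn3ox cytoplasm replicate 2 left 1 call, which was lower, and the fit of the cytoplasm libraries alone also left 1.

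Setting cytoplasm against total RNA, none of the 12 rows passed in wt cells, where 3.78% of all rows did, 0.616% higher and 3.16% lower; 3 had an unadjusted p under 0.05, and DESeq2 called 1 lower, Mrps30 (adjusted p 0.0306). Without wt cytoplasm replicate 2, edgeR called Mrpl24 lower (log2 ratio −1.72, adjusted p 0.0393). In the libraries labelled Mkrn3ox, Mrpl49 was lower in the cytoplasm (log2 ratio −2.49, SE 0.66, adjusted p 0.0322), and 4.53% of all rows passed, 0.775% higher and 3.76% lower. Its counts were 2, 2 and 4 in Mkrn3ox cytoplasm against 10, 31 and 20 in Mkrn3ox total, and the call was lost without any of Mkrn3ox cytoplasm replicates 1, 2 and 3 or Mkrn3ox total replicates 2 and 3, and in the fit of the Mkrn3ox libraries alone. The difference of the cytoplasm-to-total ratio, Mkrn3ox minus wt, passed in none of the 12 rows with edgeR or DESeq2, where edgeR called 0.219% of all rows, 0.0795% higher and 0.139% lower; 2 had an unadjusted p under 0.05. For Mrpl49 that difference was −2.94 (SE 0.86, adjusted p 0.216).

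**Figure D5:**
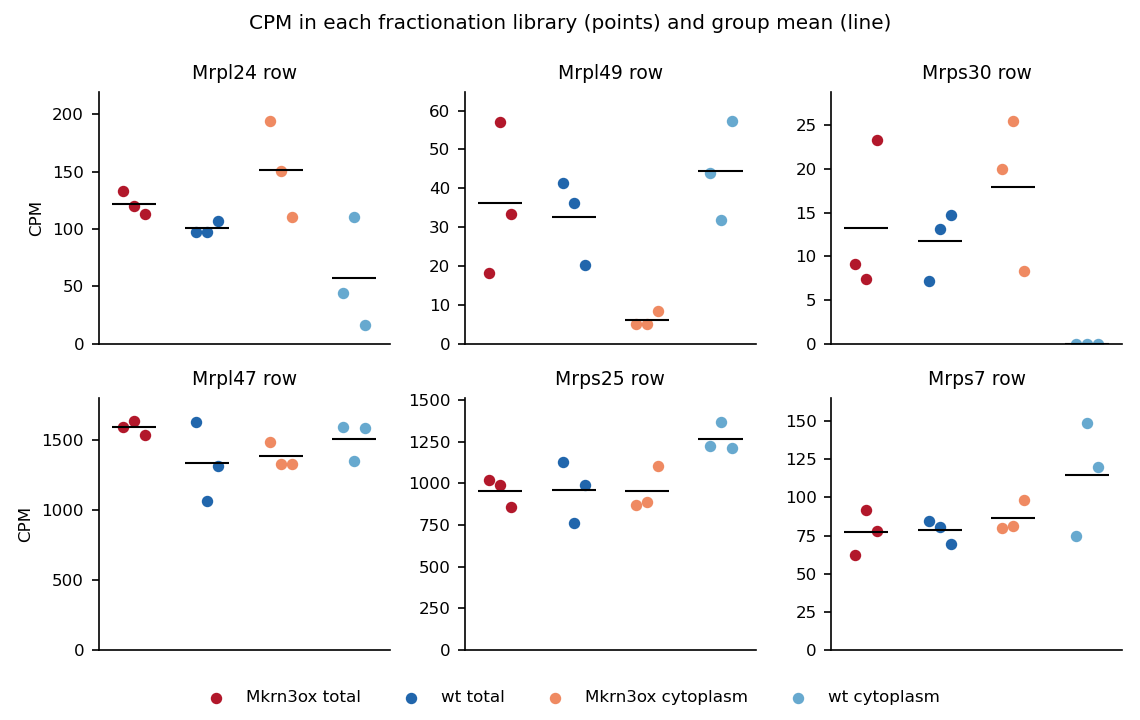
CPM of 6 of the 12 tested rows in each fractionation library (points) with the group mean (line), in the order Mkrn3ox total, wt total, Mkrn3ox cytoplasm and wt cytoplasm. The Mrpl49 row is low in the 3 Mkrn3ox cytoplasm libraries and the Mrps30 row is at 0 in the 3 wt cytoplasm libraries, while the Mrpl47 and Mrps25 rows overlap between Mkrn3ox total and wt total.

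The lists of neuronal markers and of markers of other cells were also read in these libraries, and differences in them were not tested. The summed level of the fibroblast, immune and endothelial list was 290 to 370 CPM in Mkrn3ox cytoplasm against 438 to 563 CPM in wt cytoplasm, and 495 to 516 CPM in Mkrn3ox total against 351 to 522 CPM in wt total, with Pecam1, Aif1 and Cdh5 at 0. Col1a2 carried that list, with 291 CPM in Mkrn3ox cytoplasm against 475 CPM in wt cytoplasm, while Col1a1 lay the other way, at 26.6 CPM in Mkrn3ox cytoplasm against 7.29 CPM in wt cytoplasm and 52.5 CPM in Mkrn3ox total against 6.03 CPM in wt total. The neuronal list was at 229 to 300.3 CPM in Mkrn3ox cytoplasm against 124 to 235 CPM in wt cytoplasm, and at 163 to 214 CPM in Mkrn3ox total against 115 to 147 CPM in wt total. Within it, Eno2 lay the other way in the cytoplasm, at 16.7 CPM in Mkrn3ox against 22.3 CPM in wt. Their part in the calls above was not tested.

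The summed level of the 78 rows, carried by Mrpl47 and Mrps25, was 3338 ± 163 CPM in Mkrn3ox total and 2922 ± 427 CPM in wt total, and 3167 ± 265 CPM in Mkrn3ox cytoplasm and 3449 ± 118 CPM in wt cytoplasm (SD, n = 3 each). Among the 12 tested partner genes, the row of Gadd45gip1, a large-subunit protein, was lower in the libraries labelled Mkrn3ox in total RNA (log2 ratio −0.94, adjusted p 0.000685) and in cytoplasmic RNA (−1.08, adjusted p 0.000132). Of all rows, 7.39% passed in total RNA and 10.5% in cytoplasmic RNA. Gfm2, a factor for recycling mitochondrial ribosomes, was lower in cytoplasmic RNA (−1.24, adjusted p 0.00264) and in Mkrn3ox cytoplasm against Mkrn3ox total (−0.91, adjusted p 0.0427). Mean levels of the Gadd45gip1 and Gfm2 rows in the fractionation groups were 844 to 1843 CPM and 285 to 677 CPM. In the RIP groups they were 26.8 to 39.7 CPM and 31.01 to 44.4 CPM, a gap between the experiments like that of the Mrpl47 and Mrps25 rows.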

How the data were processed

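Per the labels' protocols, RNA was extracted with TRIzol, and all 24 libraries were made with CEL-seq2. The submitters' processing notes name cutadapt, STAR, HTSeq and mm10; the sources used here do not give their versions, the annotation, the strand setting or whether molecular identifiers were used. The authors deposited raw counts per gene in 2 tables, 1 per experiment of 12 libraries. Each was fitted apart with edgeR 4.0.16 under R 4.3.3, on all 4 groups together, after filterByExpr and TMM scaling; glmQLFTest was two-sided, with Benjamini-Hochberg adjustment over all genes tested. Biological coefficients of variation were 0.384 (fractionation) and 0.115 (RIP). The code was tested on simulated data. Alternatives were DESeq2 1.42.0, other scalings and filters, the replicate block, the compared groups alone and leaving out each library; the fit without mt-Nd6 was added after seeing the data. The genes, lists and tests were chosen with earlier results of these data known. The text names up to 8 called genes per direction (mean count 20 or more) with the largest log2 ratios, genes fixed by role, and up to 3 per partner list; others are named as chosen after their values were seen or to complete a list. Promoters came from RefSeq GRCm38.p6. Counts limit precision: intervals and floors cover counting error only.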

Additional observations from a re-analysis of the deposited data

Results flagged for a closer look

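The ratio of IP to input differed between GFP-Mkrn3 cells and GFP cells, by the test of the difference itself, in 13 of the mitochondrial ribosomal protein genes named by size or role. In all 44 of the 77 passed, each higher with GFP-Mkrn3, where 24.3% of all genes passed, 13.2% higher and 11.1% lower. The log2 differences, GFP-Mkrn3 minus GFP, were 2.65 for Mrpl54, 2.64 for Mrpl36, 2.45 for Mrpl34, 2.41 for Mrps21, 1.93 for Mrpl12, 1.86 for Mrps28, 1.83 for Mrpl52, 1.77 for Mrps16, 1.69 for Mrps12, 1.63 for Mrps18b, 1.40 for Mrps18a, 1.30 for Mrps18c and 1.16 for Mrpl58. In each of them every GFP-Mkrn3 IP library lay above every GFP IP library. The genes were listed because they passed a test on these same libraries, so this is no separate support. The share of all genes without overlap was not counted.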

How the results depend on the processing

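The number of mitochondrial ribosomal protein genes called stayed within 1.5 times under every alternative in 4 RIP comparisons: 0 for GFP-Mkrn3 input against GFP input, 58 to 68 for GFP IP against GFP input, 50 to 68 for GFP-Mkrn3 IP against GFP IP and 34 to 55 for the difference of the IP-to-input ratios. Leaving out 1 library gave 58 to 63, 50 to 61 and 34 to 49 in the last 3, and 11 to 26 for GFP-Mkrn3 IP against its input, with 26 without GFP-Mkrn3 IP replicate 3. Scaling by library size alone set the all-gene medians at −0.11 for GFP IP against GFP input (2554 genes higher and 3952 lower, against 3274 and 3291 with TMM), 0.11 for GFP-Mkrn3 IP against its input (2599 and 1263, against 1812 and 1675), 0.21 for GFP-Mkrn3 IP against GFP IP (4104 and 1154, against 2661 and 2246), 0.23 for the difference of the ratios (2845 and 603, against 1724 and 1454), 0.10 for Mkrn3ox against wt total (252 and 163, against 179 and 193), 0.38 for Mkrn3ox against wt cytoplasm (507 and 189, against 217 and 309), −0.22 for wt cytoplasm against wt total (16 and 230, against 31 and 159) and 0.27 for the difference of the cytoplasm-to-total ratio (8 and 6, against 4 and 7). With TMM all of these lay between −0.01 and 0.04. In the fractionation experiment, Mkrn3ox against wt gave 1 call in total RNA with the compared groups alone, and in cytoplasmic RNA 1 call with a mean of at least 20 counts, 1 with the compared groups alone and 1 to 3 with 1 library left out. Wt cytoplasm against wt total gave 1 with library size alone, 1 with DESeq2 and 0 to 1 with 1 library left out. Mkrn3ox cytoplasm against Mkrn3ox total, where Mrpl49 was called, gave 0 with a mean of at least 20 counts, with the compared groups alone, and with the replicate block in either form, and 0 to 1 with 1 library left out. The causes were not tested, other than fewer genes tested or fewer libraries by construction. Inputs were kept from the lysates used for the IPs, but the main fits did not pair libraries by replicate number. Deviations of same-numbered libraries had correlations of −0.067 to 0.039 (fractionation) and −0.15 to 0.24 (RIP). With 3 libraries per group, these correlations cannot decide whether the numbers pair the libraries. Of 1142 alternative values of named genes, 28 lost their call, 23 gained one and 0 changed direction with a call. The low fractionation counts, a median of 22.5 per gene row over 12 libraries, limit what can be detected there. Whether those rows hold reads of the named genes was not tested.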
